A study of Glycine max with 6 samples.

Results

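Gibberellins are plant hormones that promote leaf and stem growth. GA20OX enzymes, the gibberellin 20-oxidases, make the precursors of the active hormone, GA3OX enzymes carry out the last step to its active form, and GA2OX enzymes break it down. GASA genes encode small, cysteine-rich, mostly secreted peptides, first recognised in tomato and Arabidopsis as transcripts that respond to gibberellin; in Arabidopsis some members are raised by the hormone and others are lowered. The genes of these families were described in soybean (Glycine max) leaf by taking every row of the authors' table whose NCBI gene number carries a symbol or synonym that begins with GA20OX, GA3OX, GA2OX or GASA. The rule found 39 genes among 41759: 8 for synthesis (5 GA20OX and 3 GA3OX), 6 GA2OX genes for breakdown and 25 GASA genes for response. A further 17 genes with such symbols in the RefSeq table were not analysed here.

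Leaf RNA of HN44 was sequenced in 3 libraries (HN44-1 to HN44-3) and that of SN14 in 3 more (SN14-1 to SN14-3); the study contrasts genotypes that differ in water use efficiency. Both were grown in a field under natural conditions without a stated treatment, and the labels do not give plant age, sampling time, which genotype is the more water-efficient or whether libraries stand for different plants. The planting note names the material L-1-OL-1 without relating that name to the genotypes. The p-values therefore reflect only library-to-library spread, part of which may be technical.

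Levels are the authors' FPKM, a fragment count scaled for transcript length and library depth, so that genes can be set side by side. Among tested family members, 15 had levels more than 2-fold apart in HN44-1 and HN44-2, and in 14 of these, all but GASA7, the HN44-3 level was intermediate. Genes chosen for a wide gap tend to have the remaining library inside it, and these genes vary together. Over all 27140 tested genes the same count gave 96% for HN44-3, against 45.2% to 67.4% for each SN14 library set between its other two. On that wider difference HN44-3 is left out of HN44 means, which are over HN44-1 and HN44-2 (SD, n = 2), while SN14 means are over its 3 libraries (SD, n = 3). Tests are given with all 6 libraries and, for only part of the genes, also without HN44-3. Fits that leave out a library of SN14 keep HN44-3 as a full sample. The tissue label was checked against markers, among them 7 leaf genes for Rubisco small subunits, light-harvesting proteins and a photosystem subunit. These leaf genes summed to between 38448 and 61445 FPKM in HN44 and between 69655 and 80748 in SN14. The 2 nodule genes analysed summed to at most 0.68 FPKM, and the 1 seed storage gene reached at most 0.07. A further 7 nodule and 9 seed genes on the marker lists were not analysed here.

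The synthesis genes lay in opposite directions between the genotypes by step, the GA20OX sum being higher in SN14 and GA3OX means higher in HN44. GA20OX6 and GA20OX8 were barely detected and overlapped between the genotypes. However, GA20OX7 alone passed the test, and it is annotated in RefSeq as a transcribed pseudogene. GA20OX transcripts summed to 0.69, 3.59 and 2.15 FPKM across HN44-1 to HN44-3 and to 34.97, 7.98 and 25.79 FPKM across SN14-1 to SN14-3, so that every SN14 library lay above every HN44 library. GA3OX transcripts summed to 25.34, 16.26 and 19.41 FPKM in HN44 and to 9.35, 16.75 and 3.9 FPKM in SN14, with SN14-2 inside the HN44 range. The ratio of the GA20OX sum to the GA3OX sum ran from 0.0272 to 0.221 over the HN44 libraries and from 0.476 to 6.61 over those of SN14. These sums are descriptions and carry no test. GA20OX7 supplied 3.08 FPKM of the GA20OX sum in SN14-2 and 0.19 FPKM in HN44-2. Without it SN14-2 would stand closer to HN44-2 in that sum and in the ratio. In whole leaf RNA, fewer cells of a type that makes a transcript and less of that transcript per cell cannot be told apart.

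GA20OX7 was the family member with the smallest p. It lies on chromosome 16 (36218990 to 36220790 in the authors' coordinates, with no build named) and is annotated in RefSeq as a transcribed pseudogene. It was listed at 0 FPKM in HN44-1, at 0.19 in HN44-2 and at 0.11 in HN44-3, against 3, 3.08 and 4.9 FPKM across SN14-1 to SN14-3. The groups stood far apart, and the SN14 libraries were close to each other. GA20OX7 fell in HN44 by 2.06 ± 0.20 (SE) on the log2(FPKM + 1) scale, which understates the change of so low a gene; its adjusted p in limma was 0.00462 with 6 libraries and 0.0425 without HN44-3. It entered the test only through its SN14 values, since tested genes had at least 1 FPKM in at least 3 libraries. Testing every gene detected in any library, without that requirement, gave an adjusted p of 0.00817 in limma. When HN44-3 was left out and the requirement was applied again to the other 5 libraries, the limma adjusted p was 0.0869.

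GA20OX3, also named GmGA1, was the most abundant GA20OX gene, with 81.2% of the family's summed FPKM over the 6 libraries. It lies on chromosome 9 (36885731 to 36887856). Its level was 0.61, 3.32 and 2.04 FPKM across HN44-1 to HN44-3 and 30.49, 4.59 and 20.02 FPKM across SN14-1 to SN14-3. The lowest SN14 library was above the highest HN44 library, but only narrowly, and the levels spread over 5.44-fold between HN44-2 and HN44-1 and over 6.64-fold between SN14-1 and SN14-2. The log2 fold change of -2.48 ± 0.67 did not pass in limma (adjusted p = 0.0845 with 6 libraries and 0.287 without HN44-3). Without SN14-2, the SN14 library nearest to HN44, the change was -3.22 ± 0.44, with a limma adjusted p of 0.0268. Leaving out that library moves the genotypes apart by construction, so this fit is no support for a difference.

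GA20OX5 was below the level required for testing but was ordered in the same way. It was at 0.04, 0.04 and 0 FPKM in HN44 and at 1.4, 0.27 and 0.83 FPKM across SN14-1 to SN14-3. The remaining GA20OX genes, GA20OX6 and GA20OX8, did not exceed 0.04 FPKM in any library.

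The GA3OX genes, for the activating step, had higher means in HN44. GA3OX6 on chromosome 17 (33370490 to 33373166) was at 12.88, 6.24 and 8.96 FPKM across HN44-1 to HN44-3 and at 0.75, 4.08 and 0.87 FPKM across SN14-1 to SN14-3. The genotypes did not overlap, with SN14-2 nearest to HN44. Its log2 fold change was 1.97 ± 0.45, with a limma adjusted p of 0.0652 with 6 libraries and 0.252 without HN44-3. Without SN14-2 the limma adjusted p was 0.0206, so that this call too turned on 1 library. Leaving out the nearest library again moves the genotypes apart by construction. GA3OX5 on chromosome 15 (964638 to 966654) had 2.59, 2.1 and 2.21 FPKM in HN44 and 0.88, 1.32 and 0.17 in SN14, again without overlap; its log2 fold change was 0.94 ± 0.27 (limma adjusted p = 0.0931 with 6 libraries and 0.311 without HN44-3). GA3OX3 on chromosome 13 was at 9.87, 7.92 and 8.24 FPKM in HN44 and at 7.72, 11.35 and 2.86 in SN14. Here the SN14 values reached both above and below those of HN44, and the log2 fold change was 0.37 ± 0.41 (limma adjusted p = 0.576).

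Of the 5 synthesis genes tested, 1 fell in HN44, none rose and 4 did not pass. Over all 27140 tested genes, 3.78% passed with 6 libraries, 1.44% as lower in HN44 and 2.33% as higher, and without HN44-3, where GA20OX7 was again the synthesis gene that passed, 0.553% did, 0.166% as lower. Groups of 6 libraries did not overlap in 4 of the 5 synthesis genes, GA20OX3 and GA20OX7 with HN44 below and GA3OX5 and GA3OX6 with HN44 above. Over all tested genes HN44 was below in 10.5% and above in 23.3%. GA20OX7, the gene that fell, entered the test only through SN14, so its direction in these counts was fixed by the filter.

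**Figure D1:**
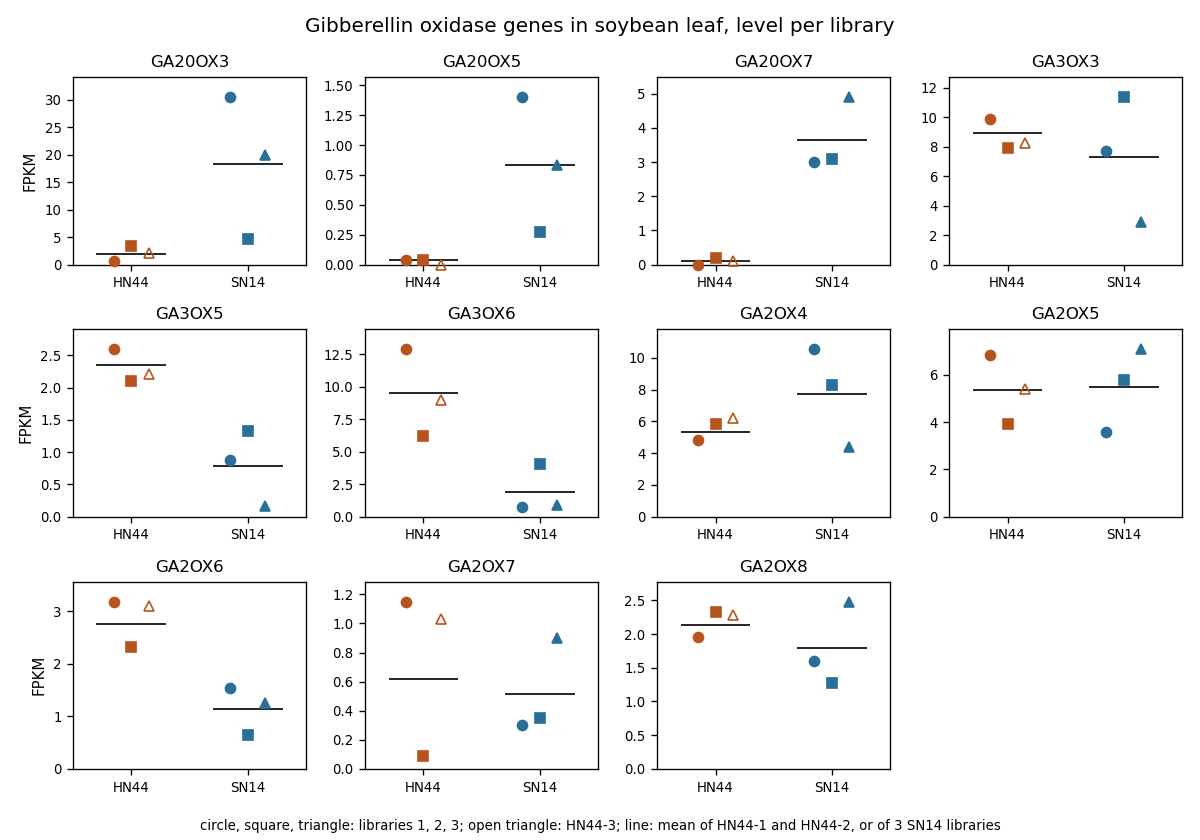
FPKM (vertical axis, linear, from 0) of 11 gibberellin oxidase genes in each library of HN44 (orange) and SN14 (blue), with marker shape for the library number and a line for the mean of HN44-1 and HN44-2 or of 3 SN14 libraries. The GA20OX genes are higher in SN14, GA3OX5, GA3OX6 and GA2OX6 are higher in HN44 without overlap, and the other genes overlap.

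The GA2OX genes, which remove active hormone, stood at nearly the same total in both genotypes. They summed to 17.95, 14.49 and 17.98 FPKM across HN44-1 to HN44-3 and to 17.64, 16.35 and 16.08 FPKM across SN14-1 to SN14-3, and the SN14 values all lay within the HN44 range. None of the 4 tested GA2OX genes passed in limma with 6 libraries, and 1 of them, GA2OX6, had an unadjusted p under 0.05, as did 27.3% of all tested genes. GA2OX6 was at 3.18, 2.32 and 3.09 FPKM in HN44 and at 1.54, 0.64 and 1.26 in SN14. Its groups did not overlap, and its log2 fold change of 0.86 ± 0.22 had a limma adjusted p of 0.0738 with 6 libraries and 0.304 without HN44-3.

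The most abundant breakdown genes were GA2OX4 on chromosome 11 and GA2OX5 on chromosome 13. GA2OX4 had 4.84, 5.85 and 6.19 FPKM across HN44-1 to HN44-3 and 10.53, 8.3 and 4.37 across SN14-1 to SN14-3, with a log2 fold change of -0.33 ± 0.29 (limma adjusted p = 0.48). GA2OX5 had 6.83, 3.9 and 5.39 FPKM in HN44 and 3.59, 5.78 and 7.07 in SN14, with a log2 fold change of -0.01 ± 0.27 (limma adjusted p = 0.982). Both overlapped between the genotypes. GA2OX8 lay between 1.28 and 2.48 FPKM in all libraries, and its difference of 0.21 ± 0.20 was close to the median of all tested genes, 0.17. GA2OX2 and GA2OX7 were too low for the test, GA2OX2 with 0.08 FPKM in SN14-1 and 0 elsewhere and GA2OX7 with between 0.09 and 1.15 FPKM.

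GA2OX6 and GA2OX7 are neighbours on chromosome 13, on the same strand, 11652 bases apart with no other row of the table between them. GA2OX7 was at 1.15, 0.09 and 1.03 FPKM in HN44 and at 0.3, 0.35 and 0.9 in SN14, so it did not share the separation of the genotypes seen in GA2OX6. If the pair is similar in sequence, reads may be divided between them, which was not tested.

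**Figure D2:**
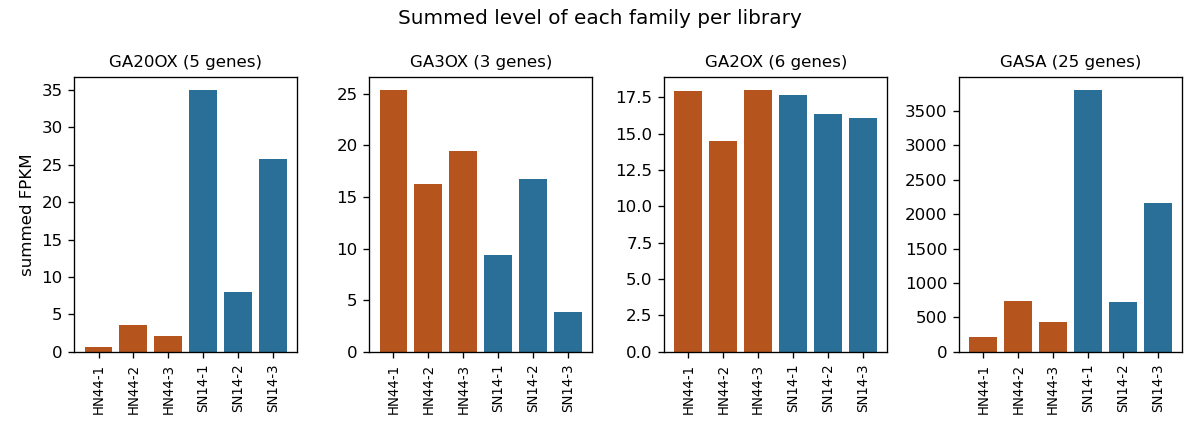
Summed FPKM (vertical axes, linear, from 0) of the GA20OX, GA3OX, GA2OX and GASA genes in each library of HN44 (orange) and SN14 (blue). GA20OX is highest in SN14-1 at 34.97 FPKM, GA3OX highest in HN44-1 at 25.34, GA2OX lies between 14.49 and 17.98 in every library, and GASA ranges from 208 in HN44-1 to 3800 in SN14-1.

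The GASA genes were far more abundant in sum than the oxidases. Their summed level was 208, 731 and 426 FPKM across HN44-1 to HN44-3 and 3800, 717 and 2168 FPKM across SN14-1 to SN14-3. SN14-1 and SN14-3 stood well above all HN44 libraries, but SN14-2 lay just under HN44-2. The summed leaf marker level was also lowest in HN44-1 and highest in SN14-1. Within SN14 the orders differed: the marker sum was 77579 FPKM in SN14-2 and lowest in SN14-3, at 69655 FPKM. The GASA sum was lowest of SN14 in SN14-2. Any part of the marker level in the GASA levels was not tested. Of 17 tested GASA genes, 1 rose in HN44 with 6 libraries (2.33% of all tested genes rose), none fell and 16 did not pass in limma, where 6 had an unadjusted p under 0.05 beside 27.3% of all tested genes. Without HN44-3 none passed, with 5 at an unadjusted p under 0.05 beside 14.1% of all tested genes. The fitted change was below 0 in 15 of the 17, compared with 36% of all tested genes, and had a median of -1.69 against 0.17. GASA34 is among the 15 and among the 6 with an unadjusted p under 0.05. It entered the test only through its SN14 values, so its direction was fixed by the filter.

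GASA28 was the GASA gene that rose. It lies on chromosome 17 (41212167 to 41213243) and was at 19.9, 24.06 and 20.51 FPKM across HN44-1 to HN44-3 and at 3.85, 9.04 and 2.15 FPKM across SN14-1 to SN14-3. The HN44 libraries were close together and all were more than 2-fold above the highest SN14 library. The log2 fold change was 2.07 ± 0.40, with a limma adjusted p of 0.0451 with 6 libraries. The call was lost on leaving out HN44-1, HN44-2, HN44-3, SN14-1 or SN14-3, with limma adjusted p of 0.143, 0.0762, 0.197, 0.089 and 0.0716, and after median-of-ratios scaling (0.0611), while the fitted change stayed between 1.68 and 2.52 under these and the other alternatives. Without SN14-2, the SN14 library nearest to HN44, it passed, at a limma adjusted p of 0.0115. Leaving out that library moves the genotypes apart by construction, so the pass is no support for a difference.

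GASA29 is the nearest neighbour of GASA28, 9267 bases away on the opposite strand with no other row between. It was at 48.05, 51.53 and 52.78 FPKM in HN44 and at 52.32, 48.79 and 176 FPKM across SN14-1 to SN14-3. In 5 of the 6 libraries its level was nearly the same, and SN14-3 alone stood above. The log2 fold change of -0.59 ± 0.47 (limma adjusted p = 0.442) became 0.01 without SN14-3. The neighbours thus had different patterns: GASA28 separated the genotypes and GASA29 did not.

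GASA7 on chromosome 5 (3021851 to 3023335) had the largest fitted difference among the family members. It was at 0.55, 1.21 and 0.52 FPKM across HN44-1 to HN44-3 and at 218, 7.44 and 88.79 FPKM across SN14-1 to SN14-3. The HN44 libraries were all near the lower limit of tested levels, while those of SN14 spanned 29.3-fold. The log2 fold change of -4.99 ± 1.08 had a limma adjusted p of 0.0565 with 6 libraries and 0.235 without HN44-3. Without SN14-2, the SN14 library nearest to HN44, the limma adjusted p was 0.00396, but leaving out that library moves the genotypes apart by construction. With smaller pseudocounts of 0.5 and 0.1 and all 6 libraries GASA7 passed, at limma adjusted p of 0.0499 and 0.0458. At HN44 levels this low a smaller pseudocount widens the fitted change, here to -5.46 and -6.03. Of 17 fits in total, GASA7 passed in 3.

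GASA3, GASA5 and GASA11 were abundant genes whose genotypes did not overlap although none passed. GASA3 on chromosome 3 was at 1.2, 53.38 and 23.32 FPKM in HN44 and at 596, 132 and 170 FPKM across SN14-1 to SN14-3. GASA11 on chromosome 6 was at 3.9, 73.17 and 31.43 FPKM in HN44 and at 323, 127 and 159 in SN14. GASA5 on chromosome 4 was at 15.08, 107 and 58.4 FPKM in HN44 and at 291, 161 and 120 in SN14. In all of them HN44-1 was far below HN44-2, by 44.5-fold in GASA3, 18.8-fold in GASA11 and 7.09-fold in GASA5, which in each exceeded the ratio of the SN14 to the HN44 mean (11-fold, 5.27-fold and 3.13-fold). Their log2 fold changes were -4.06 ± 1.18, -3.05 ± 0.94 and -1.93 ± 0.69, with limma adjusted p of 0.0963, 0.108 and 0.138 with 6 libraries and of 0.279, 0.301 and 0.338 without HN44-3. GASA34, a low gene at 0.41, 0.31 and 0 FPKM in HN44 and 7.61, 1.35 and 1.17 in SN14, also did not overlap, and it too entered the test only through SN14 (limma adjusted p = 0.129).

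GASA9 on chromosome 6 (3381874 to 3382861) was the most abundant member, with 35% of the summed GASA level, and ranked first in every library but SN14-2, where GASA5 did. It was at 77.98, 248 and 144 FPKM across HN44-1 to HN44-3 and at 1248, 143.5 and 953 FPKM across SN14-1 to SN14-3. SN14-2 lay inside the HN44 range, and the other SN14 libraries were at least 3-fold above it. GASA10, GASA22, GASA26 and GASA27 likewise had SN14-1 and SN14-3 above all HN44 libraries and SN14-2 within or below the HN44 range.

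GASA27 on chromosome 17 was at 7.32, 71.67 and 32.16 FPKM in HN44 and at 590, 22.32 and 242 FPKM in SN14. GASA10 on chromosome 6 was at 10.08, 42.87 and 23.58 FPKM in HN44 and at 229, 5.56 and 162 FPKM in SN14, where SN14-2 was the lowest of all 6 libraries. GASA22 on chromosome 14 was at 2.76, 11.34 and 6.47 FPKM in HN44 and at 64.69, 2.66 and 49.54 FPKM in SN14, again lowest in SN14-2. GASA26 on chromosome 17 was at 1.01, 0.75 and 0.33 FPKM in HN44 and at 16.58, 0.42 and 5.89 FPKM in SN14. With 6 libraries the limma adjusted p of these 5 genes ran from 0.186 for GASA9 to 0.494 for GASA10.

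The calls of 4 of these 5 genes depended on SN14-2. Without it, 5 GASA genes passed as lower in HN44 in limma, GASA7, GASA9, GASA10, GASA22 and GASA26, with adjusted p from 0.00396 to 0.0483, and GASA28 as higher; 3.46% of all tested genes passed in that fit, 1.36% as lower and 2.1% as higher in HN44. Libraries of HN44 and SN14 did not overlap in 5 of the 17 tested GASA genes with HN44 below and in 1 with HN44 above when all 6 were used, where the shares of all tested genes were 10.5% and 23.3%. GASA34 is among these 5 and entered the test only through SN14. Without SN14-2 the numbers were 10 and 2, with 15.5% and 30.5% of all tested genes. SN14-2 was the lowest SN14 library in the 5 genes that passed as lower without it. Leaving it out therefore moves the genotypes apart by construction and is no support for a difference. Leaving out SN14-1 or SN14-3 instead gave 0 GASA genes lower in HN44.

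**Figure D3:**
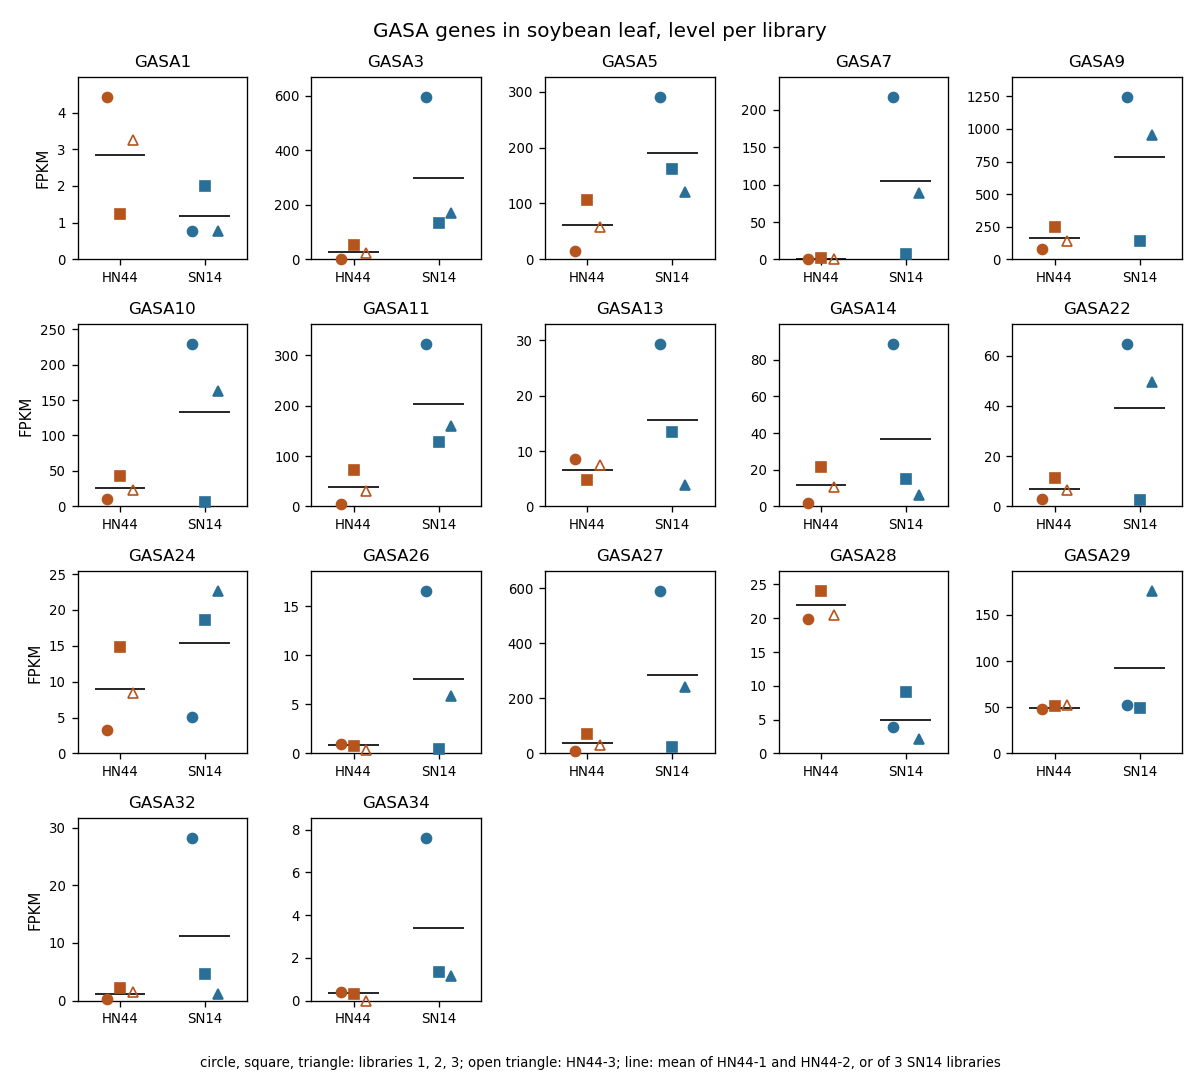
FPKM (vertical axes, linear, from 0) of the 17 tested GASA genes in each library, drawn as in the plot of the oxidases. SN14-1 (blue circle) is the highest library of most genes, SN14-2 (blue square) falls to the HN44 level in GASA9, GASA10, GASA22, GASA26 and GASA27, and GASA28 is higher in every HN44 library.

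The other GASA genes whose mean reached 5 FPKM overlapped between the genotypes. GASA13 was at 8.59, 4.71 and 7.55 FPKM in HN44 and at 29.4, 13.54 and 3.96 in SN14. The authors' table places it on chromosome 9, whereas RefSeq lists the same gene number on chromosome 2. GASA14 on chromosome 9 was at 2.14, 21.74 and 10.45 FPKM in HN44 and at 88.7, 14.69 and 6.22 in SN14, and GASA32 on chromosome 18 was at 0.2, 2.24 and 1.56 against 28.23, 4.54 and 1.07 FPKM. In these genes SN14-1 was above all HN44 libraries, while SN14-3 was the lowest SN14 library and lay within or below the HN44 range. GASA24 on chromosome 14 was at 3.24, 14.81 and 8.41 FPKM in HN44 and at 5.14, 18.56 and 22.67 in SN14, and here SN14-1 was the lowest library of its genotype. GASA1, with 0.76 to 4.43 FPKM, was the only tested GASA gene besides GASA28 with a fitted change above 0 (0.82 ± 0.38, limma adjusted p = 0.211). The 8 GASA genes below the level for testing did not exceed 3.16 FPKM, reached by GASA6 in SN14-1. Of these, GASA21, GASA33 and GASA36 were listed at 0 in all HN44 libraries and had at most 0.98 FPKM in SN14, and GASA8 had 0.11 FPKM in HN44-3 alone. GASA17 overlaps another row of the table, so its reads may be divided.

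The libraries of a genotype differed from each other in a way that many GASA genes shared. HN44-2 was at least 2-fold above HN44-1 in 11 of the 17 tested GASA genes, where the share of all tested genes was 7.28%. SN14-1 was at least 2-fold above SN14-2 in 12 of the 17, against 9.36% of all tested genes, and was the highest SN14 library in 13, against 42.3%. HN44-1 was below HN44-2 and SN14-2 below SN14-1 together in 11 GASA genes, the exceptions being GASA1, GASA13, GASA24, GASA26, GASA28 and GASA34, and in 22.5% of all tested genes. Of the synthesis genes, GA20OX3 had this order, while GA3OX3, GA3OX5 and GA3OX6 had the reverse, with HN44-1 above HN44-2 and SN14-2 above SN14-1. GA20OX7 had 3 and 3.08 FPKM in SN14-1 and SN14-2 and so did not vary with the others inside SN14. Over all tested genes, deviations from the genotype means correlated across genes at 0.431 between HN44-1 and SN14-2 and at 0.24 between HN44-2 and SN14-1, so the order was not limited to these families; genes are not independent replicates. These orders describe the libraries and carry no test, and the labels give no difference between libraries of a genotype.

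**Figure D4:**
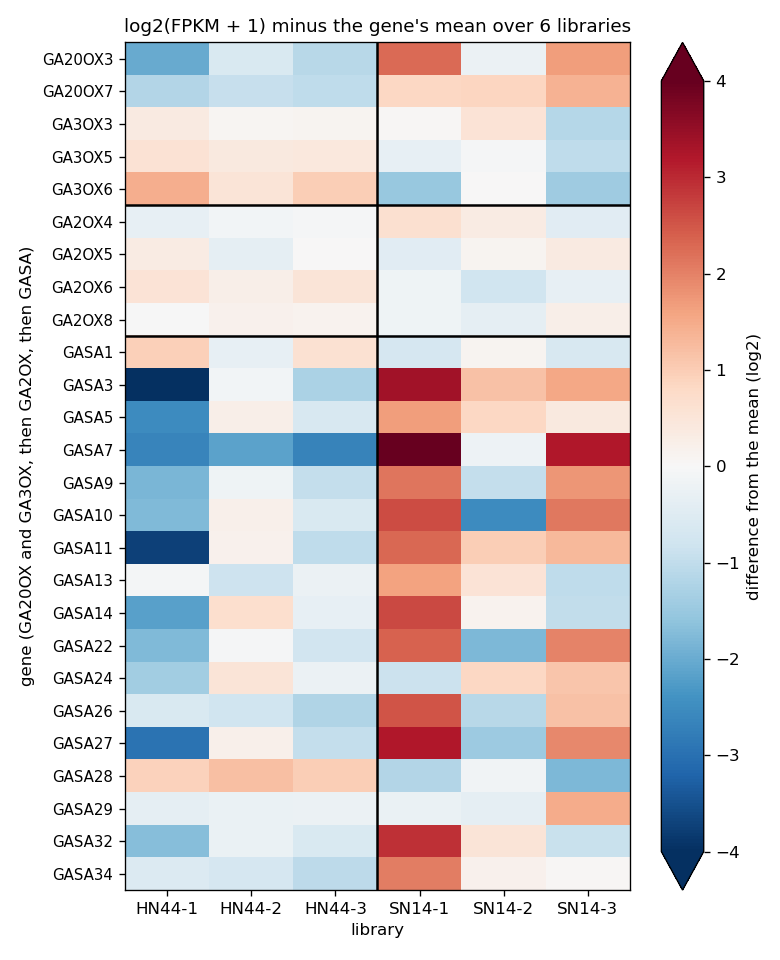
Level of each tested gene in each library as log2(FPKM + 1) minus the gene's mean over the 6 libraries (color, limited to 4 on either side), with lines between genotypes and between the GA20OX and GA3OX, GA2OX and GASA groups. Most GASA genes and GA20OX3 are low in HN44-1 and high in SN14-1, and GA3OX6 and GASA28 are high in HN44. GA3OX5 and GA2OX6 are higher in HN44 by similar, smaller amounts, and the other GA2OX rows are pale.

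Other gibberellin genes with a symbol were few, and none differed past the threshold. The 5 genes listed, for perception and signalling, were all tested, and none passed in limma with 6 libraries, while 2 had an unadjusted p under 0.05 with 6 libraries and 0 without HN44-3, beside 27.3% and 14.1% of all tested genes. The fitted change was above 0 in all 5, also after median-of-ratios scaling, where the shares of all tested genes were 64% as deposited and 50.4% after that scaling. The DELLA gene GAI2, for a repressor of gibberellin responses, had a mean of 67.7 ± 12.8 FPKM (SD, n = 2) in HN44, against 49.3 ± 3.62 (SD, n = 3) in SN14 (limma adjusted p = 0.142). GID1C2, for a gibberellin receptor, was at 9.01 ± 4.21 against 4.69 ± 1.79 FPKM (limma adjusted p = 0.168). SPY1, whose Arabidopsis counterpart modifies DELLA proteins, was at 5.6 ± 2.49 against 3.47 ± 1.27 FPKM (limma adjusted p = 0.245).

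Genes of cell wall growth and the cell cycle were set beside the GASA genes. Of 20 listed, 8 reached the level for testing, all of them for expansins, which loosen cell walls, or for enzymes that remodel wall xyloglucan. None passed in limma with 6 libraries, and 4 had an unadjusted p under 0.05 (2 without HN44-3), beside 27.3% and 14.1% of all tested genes. The fitted change was below 0 in all 8, beside 36% of all tested genes, and in 7 without SN14-2, where EXP4 stood at 0.19. EXPB8 had a mean of 1.99 ± 0.74 FPKM (SD, n = 2) in HN44, against 7.04 ± 3.92 (SD, n = 3) in SN14 (limma adjusted p = 0.0836), EXP5A at 17.9 ± 24.9 against 97.9 ± 18.7 (limma adjusted p = 0.113) and XTH1 at 1.97 ± 2.37 against 22.5 ± 24.2 (limma adjusted p = 0.135). HN44-2 was at least 2-fold above HN44-1 in 5 of these 8 genes, beside 7.28% of all tested genes, while EXP2 and XET1 had HN44-1 above HN44-2. SN14-1 was at least 2-fold above SN14-2 in 1 of the 8, XTH1, beside 9.36% of all tested genes.

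**Figure D5:**
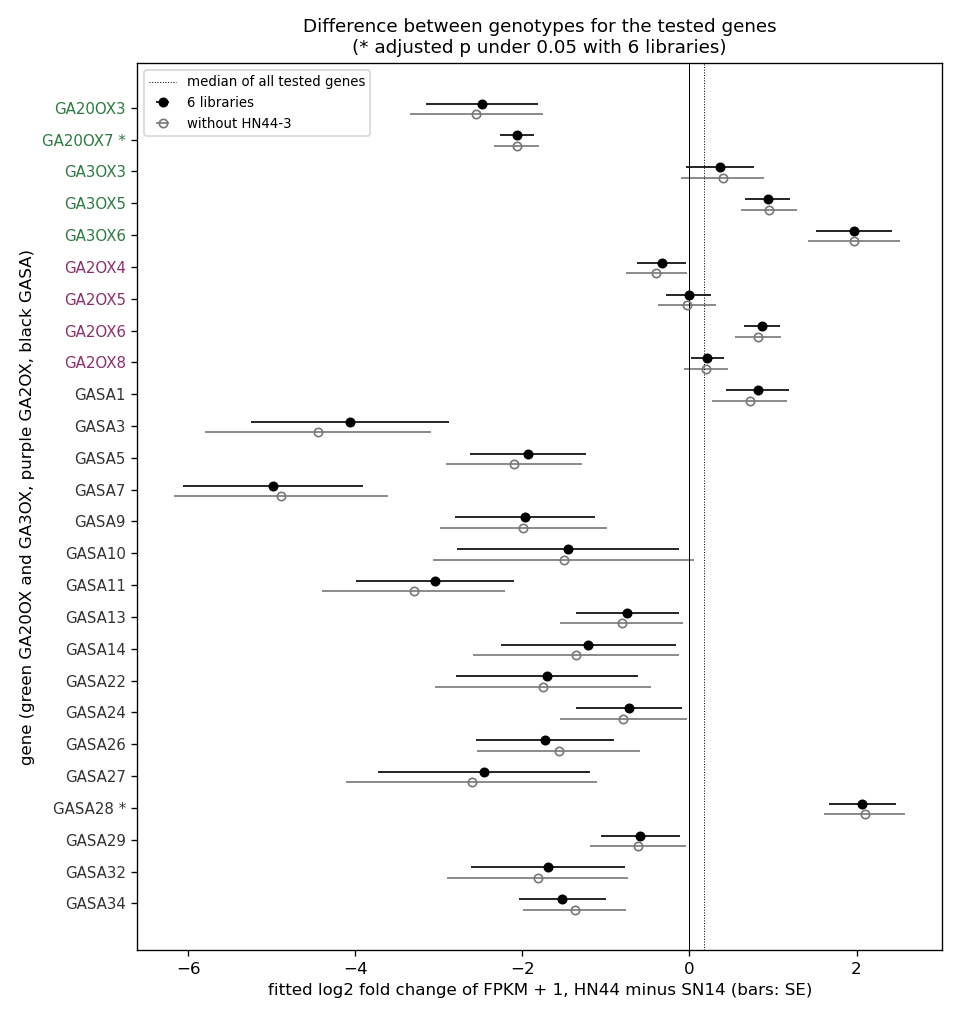
Fitted log2 fold change of FPKM + 1, HN44 minus SN14 (horizontal axis; bars are SE), for the 26 tested genes with 6 libraries (filled) and without HN44-3 (open); the dotted line is the median of all tested genes, 0.17, and stars mark an adjusted p under 0.05 with 6 libraries. GA20OX7 at -2.06 and GASA28 at 2.07 are the starred genes, and the open points lie close to the filled ones with longer bars.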

How the data were processed

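Per the file headers, the authors deposited 1 table of FPKM per gene and library, with coordinates. Tools named in the submitters' processing notes, with no role given, are RSEM 1.2.12, HISAT2 2.0.4, DESeq2 1.4.5 and Bowtie2 2.2.5; no genome build is named in the sources used here. RefSeq Glycine_max_v4.0 supplied symbols for 37544 of 38907 NCBI gene numbers and, by majority over genes, chromosome numbers. Read totals were not used, and the absolute depth is unknown. Among genes at 0.15 to 0.4 FPKM in both libraries compared, the commonest ratio to HN44-1 was between 0.966 and 1.07 in the other libraries. Only ratios near 1 were searched, so equal depth cannot be concluded from these ratios.

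The 27140 genes that reached 1 FPKM in 3 or more libraries were tested with limma 3.58.1 in R 4.3.3 with a variance trend on log2(FPKM + 1), two-sided, with Benjamini-Hochberg adjustment over all tested genes and a threshold of 0.05. Fold changes are HN44 minus SN14. Values in every library are printed for family members whose mean reached 5 FPKM in a genotype or past the threshold, for GASA28 and GA20OX7, and for lower genes that a comparison turns on, which were chosen after their values were seen; of the other lists, the 3 genes with the smallest p are named. Family members and lists were chosen with earlier results of these data known. Correlations across libraries were planned and left out, since HN44-3 is not clearly a separate sample. Alternatives were pseudocounts, filters, scalings, a replicate block, no variance trend and leaving out each library.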

Additional observations from a re-analysis of the deposited data

How the results depend on the processing

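GA20OX7 entered each fit that tested it, other than the fit with no filter, only through its SN14 values. It stayed past the threshold, lower in HN44, in each alternative that tested it except 2 in limma: without HN44-3 with the filter applied again (adjusted p = 0.0869) and without HN44-3 after median-of-ratios scaling (adjusted p = 0.0588), the latter chosen after seeing the data. The count of synthesis genes lower in HN44, 1 with 6 libraries, was 0 in these fits and with a filter of 5 FPKM, which left GA20OX7 untested, and ran from 0 to 2 on leaving out libraries; that of synthesis genes higher in HN44 ran from 0 to 1. The count of GASA genes higher in HN44, 1 with 6 libraries, was 0 with a pseudocount of 0.1, no filter, median-of-ratios scaling, quantile normalization, the replicate block, and without HN44-3 with that scaling, and ran from 0 to 1 on leaving out libraries. The count of GASA genes lower in HN44, 0 with 6 libraries, was 1 with pseudocounts of 0.1 and 0.5 and ran from 0 to 5 on leaving out libraries. No breakdown, pathway or growth gene passed in any of the 16 alternatives. Over all genes 1025 passed, 174 with the replicate block, 15 without HN44-3 with the filter applied again, 118 without it after median-of-ratios scaling, and from 150 to 961 on leaving out libraries on the same genes. The share of these calls higher in HN44 was 61.8%, and 45.5% after median-of-ratios scaling, which moved the median change of all tested genes from 0.17 to 0.0047.

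The fitted change reversed sign in 5 of 407 single-gene refits, none of them past the threshold: GA2OX5 (0.16 without HN44-2, 0.04 without SN14-2, 0.17 without SN14-3; from -0.24 to 0.17 on leaving out libraries), GASA29 (0.0062 without SN14-3; from -0.91 to 0.0062) and GA3OX3 (-0.11 without SN14-3; from -0.11 to 0.73). The cause was not tested. Libraries with the same number did not deviate together from their genotype means over all tested genes (correlations -0.223, -0.436 and 0.0296 for numbers 1, 2 and 3), although HN44-1 and SN14-2 correlated at 0.431. Deviations within a genotype cancel out, so these correlations depend on each other and cannot exclude a pairing by number. With the replicate block GA20OX7 kept its call (limma adjusted p = 0.0411) and GASA28 lost it (0.099). Family members below the filter were tested only in the fit without a filter, where they added no call.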
